A study of Mus musculus with 10 samples.

Results

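Ghrelin-expressing epsilon cells of the fetal mouse pancreas were taken from 8 single-cell RNA-sequencing libraries as the endocrine cells in which Ghrl made up at least 0.3% of all UMIs (unique molecular identifiers, each counting 1 captured mRNA molecule). A member also needed at least 1 UMI of Chga or 2 of Chgb, the granin genes of secretory granules, less than 1% of its UMIs from Ins1 and Ins2 together, and no more than 1 UMI of the collagen gene Col3a1. This rule found 428 cells among 57982 cells with at least 200 detected genes. It was applied to cells of the endocrine gate, the 9974 cells that met the granin and Col3a1 limits, of which the members were 4.29% (95% exact binomial interval 3.90 to 4.71%, counting error only). Gcg, which encodes glucagon, reached 1% of UMIs in 186 members (Gcg-high) and stayed below it in 242 (Gcg-low). In its tissue staining the paper counted only cells with Ghrl and without Gcg as epsilon cells, so the name is used more widely here.

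Epsilon cells are the rarest of the islet endocrine cells and are found mainly before birth. They make ghrelin, a peptide hormone whose prohormone is cut by convertases and becomes active after the acyltransferase MBOAT4 attaches a fatty acid, taken from acyl-CoA, to a serine near its amino end. Endocrine cells of the fetal pancreas arise from progenitors that pass through a brief peak of Neurog3, a basic helix-loop-helix transcription factor; factors such as Irx1 and Irx2 are then associated with the alpha cell fate and Pdx1, Nkx6-1 and Pax4 with the beta cell fate.

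The Swiss Webster libraries came from pooled pancreata of embryos of E12.5, of E14.5 or of E17.5. The 10x version 1 (v1) libraries held all live cells (E12.5, 2 batches of E14.5, and E17.5), and the version 2 (v2) libraries held live CD140a-negative cells, a sort against mesenchyme (1 library per stage, that of E17.5 from 2 wells, which are technical replicates and were summed). The remaining library came from E14.5 Fev-Cre;ROSA26mTmG embryos, in which cells that have expressed Cre from the Fev promoter, and their progeny, change from tdTomato to membrane GFP; all sorted GFP+ cells were loaded together with GFP-negative, tdTomato+ cells, so the class shares of this library follow the sort. Each library is a pool of embryos, and the tests below measure the spread between libraries that also differ in stage, kit, sort, strain or genotype.

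The libraries held 15671934 to 196793242 UMIs in all, and the members' median was 3349 to 10162 UMIs and 1822 to 3231 genes per cell. Different libraries shared 19 to 156 cell barcodes per pair. Among all kept cells outside the endocrine gate, 0.510 to 16.3% per library carried a Ghrl UMI, so single Ghrl UMIs were not taken as expression. Among other cell types' markers in the summed members, the erythroid list (6 genes) ran highest and varied most, from 1.70 CPM (UMIs of a gene scaled to 1000000 UMIs of the summed cells) in the Fev-Cre library to 45086 CPM in E17.5 v2. The mesenchymal list (6 genes) summed to 13.0 to 78.1 CPM, the immune list (5 genes) to 0 to 18.9 and the acinar list (7 genes) to 62.0 to 6302, against 70.3 to 7445 acinar CPM in alpha cells of the same libraries.

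Each library held members. The E12.5 v1 library held 11 (10.5% of its endocrine gate, 5.35 to 18.0%) and the E12.5 v2 library 66 (6.38%, 4.97 to 8.04%). At E14.5 there were 6 in v1 batch 1 (1.95%, 0.721 to 4.21%), 14 in v1 batch 2 (4.42%, 2.44 to 7.30%) and 79 in v2 (5.03%, 4.0 to 6.23%). The E17.5 v1 library held 24 (9.23%, 6.0 to 13.4%) and E17.5 v2 166 (6.22%, 5.33 to 7.20%). The Fev-Cre library held 62 (1.67%, 1.28 to 2.14%). Within a stage the v1 and v2 libraries' intervals overlapped at all 3 stages, except that v1 batch 1 and v2 at E14.5 overlapped only narrowly. In both kits the share was highest at E12.5 and lowest at E14.5, but the intervals of the v2 stages overlapped, and with 1 or 2 libraries per stage and kit the shares were not tested.

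**Figure D1:**
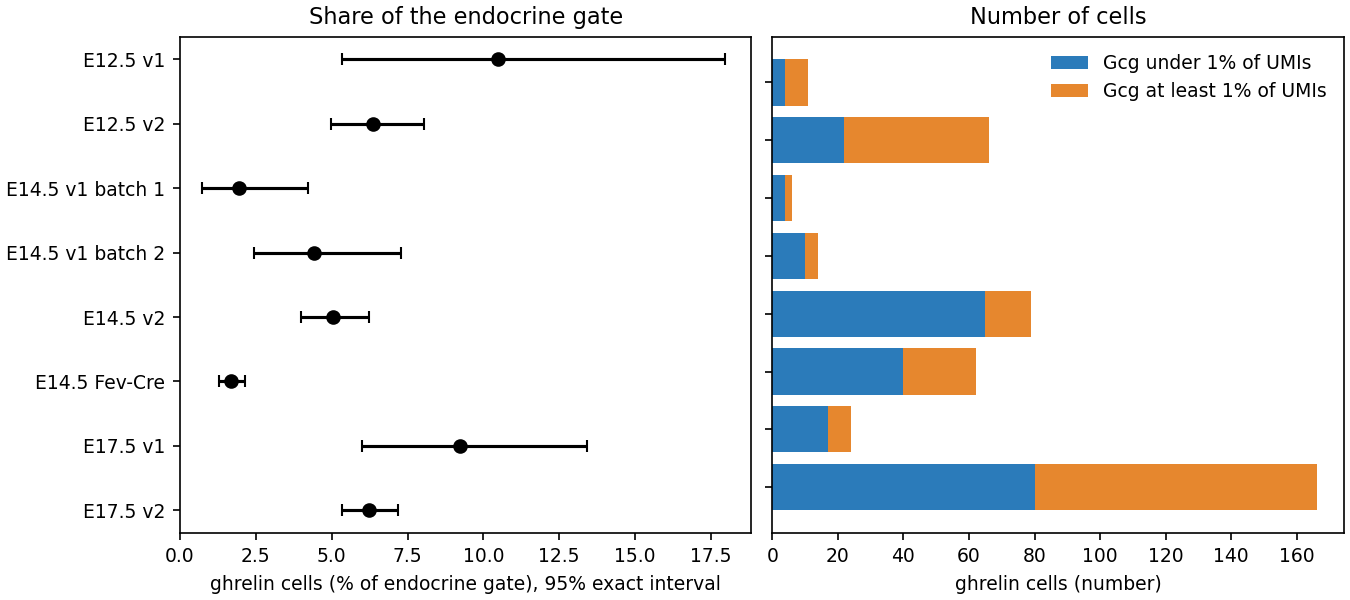
Members per library, split into Gcg-low and Gcg-high cells, and their share of the endocrine gate in percent with the 95% exact binomial interval. The E17.5 v2 library holds 166 of the 428 members, and the shares run from 1.67% in the sorted Fev-Cre library to 10.5% in E12.5 v1.

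The share of members that were Gcg-high differed among libraries by more than counting error. It was 66.7% of members in E12.5 v2 (95% exact binomial interval 54.0 to 77.8%), 17.7% in E14.5 v2 (10.0 to 27.9%) and 51.8% in E17.5 v2 (43.9 to 59.6%). The v1 libraries gave 63.6% at E12.5 (30.8 to 89.1%), 33.3% in E14.5 batch 1 (4.33 to 77.7%), 28.6% in E14.5 batch 2 (8.39 to 58.1%) and 29.2% at E17.5 (12.6 to 51.1%). The Fev-Cre library of E14.5 gave 35.5% (23.7 to 48.7%). In both kits the E12.5 value was the highest, while the E17.5 value was above that of E14.5 only in v2 by more than its interval. No doublet caller was run, and a droplet with a ghrelin cell and an alpha cell would count as Gcg-high. Median depth was 10966.5 UMIs in Gcg-high and 9368 in Gcg-low members of E17.5 v2, 10110 and 10162 in E12.5 v2, and 6194.5 and 5221 in E14.5 v2; the part of doublets in the Gcg-high members was not tested.

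The values used by the rule are given here only as a description. Ghrl medians among members lay between 0.997% of UMIs (E12.5 v2) and 5.18% (E17.5 v1), with a maximum of 28.2% in 1 cell of E17.5 v2. Gcg-high members had less Ghrl than Gcg-low members in the larger libraries, with medians of 2.32% against 5.52% in E17.5 v2 and 0.883% against 1.61% in E12.5 v2. Across the threshold, 39 cells of the endocrine gate held 0.2 to 0.3% Ghrl and 29 members 0.3 to 0.4%; a Mboat4 UMI was found in 53.8% of the former and 41.4% of the latter, and an Irs4 UMI in 12.8% and 13.8%. The threshold therefore cut through a continuous range, and 305 members lay at 1% Ghrl or more.

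**Figure D2:**
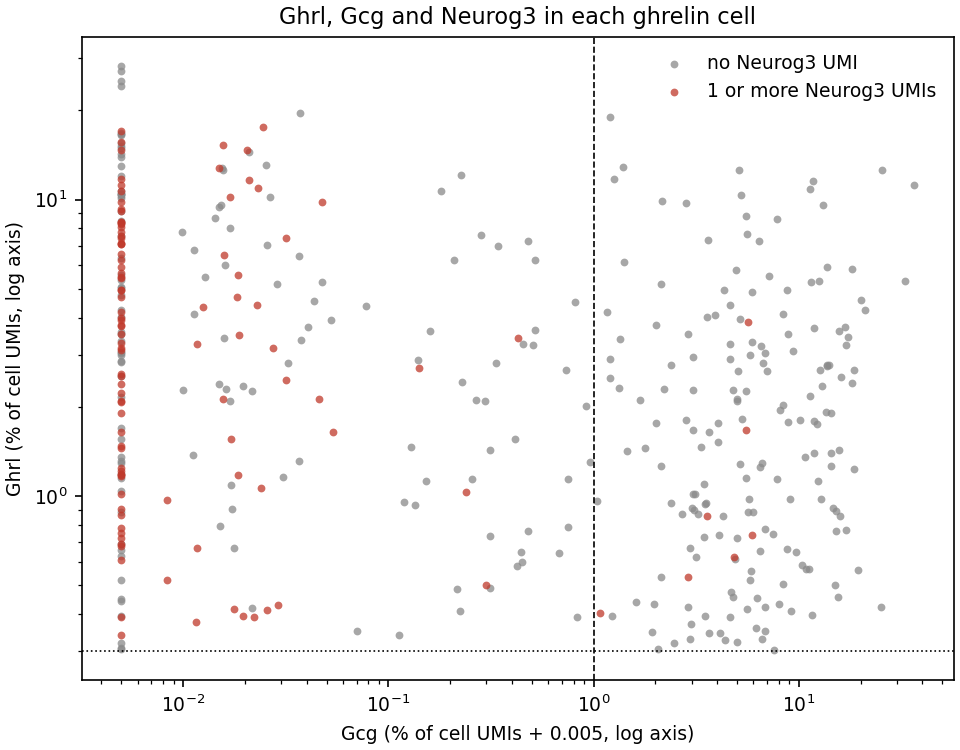
Ghrl and Gcg as percent of UMIs in every member, on log axes (with a small constant added to Gcg so that cells without a Gcg UMI can be drawn), coloured by whether the cell has a Neurog3 UMI, with the limits of the rule drawn as lines. Ghrl spans 0.3 to 28.2%, and the 186 members to the right of the 1% Gcg line have the lower median Ghrl in E17.5 v2 and E12.5 v2.

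Among the 6 hormone genes compared (Ghrl, Gcg, Ppy, Pyy, Sst and Iapp), Ghrl had the most UMIs in 222 members (51.9%), Gcg in 152 (35.5%), Pyy in 49 (11.4%) and Sst in 4. Pyy, which encodes peptide YY, was found with at least 1 UMI in 407 members (95.1%) and at 1% of UMIs or more in 171. Ttr, which encodes the thyroid hormone carrier transthyretin, reached 1% in 116 members and Iapp in 30. Gast, Sst and Ppy reached it in 7, 5 and 4. Cck had a UMI in 282 members and Npy in 17, but neither reached 1% in any. Ghsr, the gene of the ghrelin receptor, had no UMI in the 428 members. By the rule of 3 (3 over the number of cells, an approximate one-sided 95% limit), a share of up to 0.701% of cells with a UMI remains possible.

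The label was compared with the markers that came with the definition, which were chosen with these data known and are no independent evidence of it. Mboat4, on chromosome 8 (positions 34115030 to 34125182, plus strand, GRCm38), had a UMI in 50.5% of members (median 8876 UMIs per cell), against 13.6% of alpha cells (8974.5 UMIs), 1.31% of beta cells (11131 UMIs) and 7.04% of Fev hormone-low cells (6346.5 UMIs). After each cell was thinned to 2000 UMIs the shares were 23.8%, 4.07%, 0.066% and 2.72%, leaving out 7, 5, 8 and 11 shallower cells. Irs4 (chromosome X, 141710998 to 141725263, minus strand) was found in 23.4% of members, 1.27% of alpha cells and 0.197% of beta cells. Nefm, a neurofilament subunit (chromosome 14, 68082590 to 68124846), had a UMI in 60.7% of members, 45.3% of alpha and 9.72% of beta cells, and Maged2 (chromosome X, 150806370 to 150814345) in 85.3%, 71.2% and 76.6%. Maged2 thus marked the members by its level rather than by its presence. All 4 were highest in the members among these classes.

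The bases around the starts of Ghrl and Irs4 are shown because Neurog3, the progenitor factor whose transcripts separated the members most strongly below, belongs to a family that binds the E-box motif CANNTG. Each window holds 250 bases before the start and 50 after, from RefSeq on GRCm38.p6, at chr6:113719862-113720161 for Ghrl and chrX:141725168-141725467 for Irs4, both on the minus strand and written 5′ to 3′, with each CANNTG in capitals.
Ghrl: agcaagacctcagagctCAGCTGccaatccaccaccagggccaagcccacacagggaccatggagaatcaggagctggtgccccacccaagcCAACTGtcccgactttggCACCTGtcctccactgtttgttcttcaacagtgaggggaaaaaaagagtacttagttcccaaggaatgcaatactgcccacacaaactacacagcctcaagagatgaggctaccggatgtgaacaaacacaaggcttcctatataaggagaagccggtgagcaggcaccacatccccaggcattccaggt
Irs4: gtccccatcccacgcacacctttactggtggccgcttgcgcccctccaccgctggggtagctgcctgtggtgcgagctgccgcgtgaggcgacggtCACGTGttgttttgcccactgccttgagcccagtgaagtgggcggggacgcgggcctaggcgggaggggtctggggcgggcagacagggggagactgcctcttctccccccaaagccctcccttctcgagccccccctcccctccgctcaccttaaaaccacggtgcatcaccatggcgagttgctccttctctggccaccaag
The Ghrl window held 3 matches and the Irs4 window 1; the motif reads alike on both strands, so each match counts for both, and no other motif was searched. A set of 27025 RefSeq windows of this length was searched, 1 per gene symbol and with 1 chromosome left out. Of these, 72.1% held at least 1 match and 4730 windows at least 3, and the Acsl1 window held none. A match describes the letters only.

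For tests, UMIs were summed over the members of each library and over 3 other endocrine classes of that library: alpha cells (Gcg at least 1%, Ghrl under 0.3%, 1258 cells), beta cells (Ins1 and Ins2 at least 1%, Gcg under 1%, 1523 cells) and Fev hormone-low cells (at least 2 Fev UMIs with Gcg, insulin and Sst each under 1%, 2032 cells), the last 2 also with Ghrl under 0.3%. The Fev hormone-low class holds cells of the Fev-expressing stage between Neurog3 progenitors and hormone cells. A gene was called when edgeR's quasi-likelihood test gave a Benjamini-Hochberg adjusted p under 0.05 and the fold was 2 or more, with the library as a block. Genes used to define these classes were not called in comparisons between classes. The classes were cut by hormone levels in the same cells, so a fold describes the gated cells.

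Against alpha cells, epsilon cells had 75 higher genes (0.971% of 7722 tested) and 57 lower genes (0.738%). Of these 132 calls (1.71%), 90 went the same way in all 6 libraries with at least 10 cells of both classes. Among all genes tested the median log2 fold was -0.02. The 8 called genes with the largest higher fold that moved alike in all 6 libraries were Irs4, Stc2, Acsl1, Cer1, Lrrtm3, Cdkn1a, Neurog3 and St8sia2.

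Irs4, an adaptor of insulin and growth factor receptors, ran from 34.0 to 124 CPM in the members (median 78.0, 7 libraries), while alpha cells ran from 0 to 9.34 CPM (median 0.563), so the ranges did not overlap. The median of 78.0 CPM is the value of E12.5 v1, where all 6 Irs4 UMIs came from a single member of the 11. There the level does not describe the members as a whole. The log2 fold of Irs4 was 4.95 ± 0.39 (SE, adjusted p = 6.53e-10, edgeR). Acsl1, which joins long-chain fatty acids to coenzyme A, ran from 27.3 to 186 CPM (median 63.4) against 0 to 8.18 (median 3.11), a log2 fold of 4.05 ± 0.33 (adjusted p = 8.95e-10, edgeR). Of the 7 tested genes of acyl-CoA and lipid supply, Acsl1 was the only one called in this comparison. The median log2 fold of that list was -0.34.

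Mboat4 ran from 67.7 to 559 CPM in the members (median 143) and from 9.94 to 96.5 in alpha cells (median 16.4). Its levels overlapped over these ranges, but it was higher in the members in each of the 6 libraries, with a log2 fold of 2.67 ± 0.32 (adjusted p = 2.07e-06, edgeR). Maged2 was higher by 2.31 ± 0.24 (adjusted p = 1.27e-07) and Nefm by 1.52 ± 0.20 (adjusted p = 1.01e-05, edgeR). Of the 7 tested genes for making ghrelin, Mboat4 was the only one called. Pcsk2, a prohormone convertase, was lower by 0.96 ± 0.25, which was under the fold limit (log2 fold -0.96, adjusted p = 0.0191), and Pcsk1, the convertase that cuts proghrelin, gave 0.73 ± 0.32 (adjusted p = 0.234, edgeR).

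Cdkn1a, which encodes the cyclin-dependent kinase inhibitor p21, ran from 841 to 4374 CPM in the members (median 1303), above every alpha value (49.1 to 420 CPM). The log2 fold was 3.39 ± 0.37 (adjusted p = 3.65e-07, edgeR). It was the only gene called of the 9 in the cell cycle list, whose other members include Mki67 and Top2a. Neurog3 ran from 107 to 1078 CPM against 8.18 to 34.9 in alpha cells, a log2 fold of 3.06 ± 0.48 (adjusted p = 0.000102, edgeR). In E12.5 v1 all 19 Neurog3 UMIs came from a single member. Btbd17 was the other called gene of the 12 tested endocrine progenitor genes (log2 fold 1.31 ± 0.26), and none of the 12 was lower.

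Stc2, a secreted stanniocalcin glycoprotein (log2 fold 4.36), and Cer1, a secreted antagonist of BMP and Nodal ligands (3.80), were higher than in alpha cells, as were Lrrtm3, a leucine-rich repeat protein of synapses (3.76), and St8sia2, a polysialyltransferase (2.99). Cck was the only 1 of 7 tested islet hormone genes that was higher (1.07 ± 0.25), 1 was lower (Iapp), and the median log2 fold of that list was -0.68. Gal, the galanin gene, was chosen after its value was seen and was higher by 2.02 ± 0.37. The 8 lower genes picked by the same rule were Gip, G6pc2, Spink4, Gng11, Zcchc18, Prss50, Ffar1 and Prkcb, with log2 folds from -3.25 to -1.55. Gip, an incretin hormone gene, ran from 0 to 32.5 CPM in the members and 6.14 to 296 in alpha cells. G6pc2 encodes an islet glucose-6-phosphatase and Ffar1 a receptor for long-chain fatty acids. Iapp was lower by 1.54 ± 0.38 (log2 fold -1.54, adjusted p = 0.0121, edgeR). Tyrobp and Col1a2, an immune and a mesenchymal marker, were also called lower, with log2 folds of -3.20 and -1.16; the whole immune list summed to a median of 8.60 CPM in members and 67.9 in alpha cells, and the part of such RNA in these calls was not tested.

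**Figure D3:**
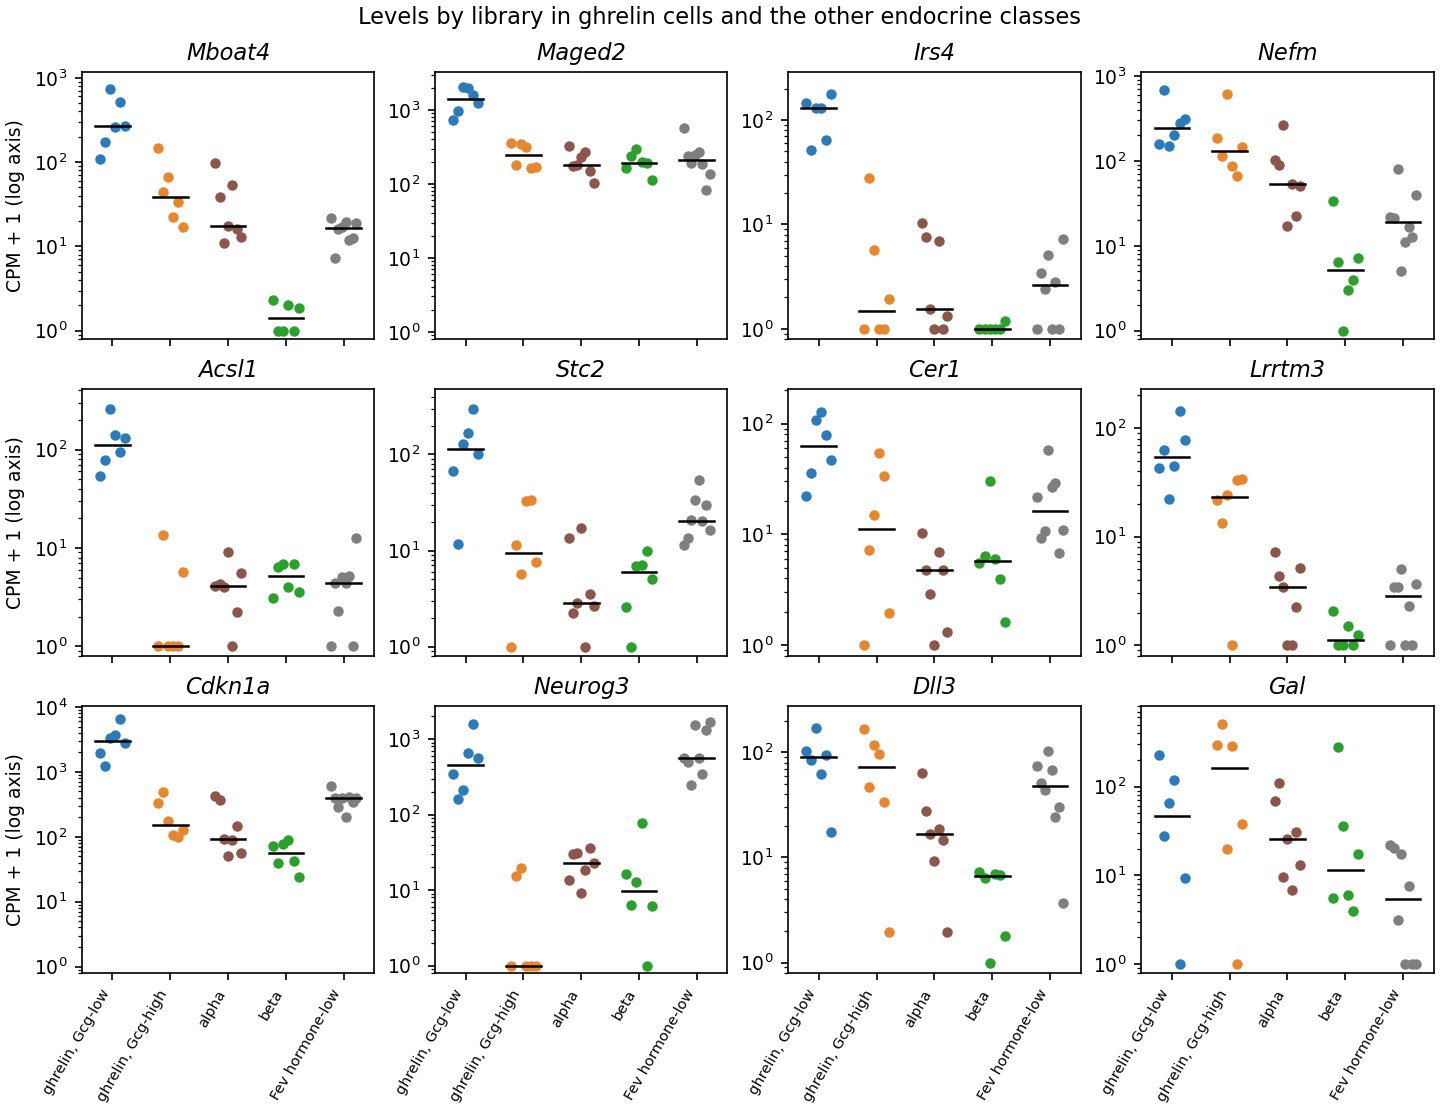
CPM + 1 on a log axis for 12 genes in Gcg-low members, Gcg-high members, alpha, beta and Fev hormone-low cells, 1 point per library and the class median as a bar. Irs4, Acsl1, Cdkn1a and Neurog3 are high in the Gcg-low members and low in Gcg-high members, where Neurog3 lies between 0 and 18.6 CPM; Nefm is less separated.

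Calls among regulators of the endocrine lineages against alpha cells are read beside the 1.71% of all genes called. The alpha- and beta-lineage lists are called regulators for short. They also hold genes that the paper found enriched along the paths it inferred toward alpha or beta cells in the Fev-Cre library. For some of these, such as Peg10 and Gng12, the paper knew of no described role in endocrine differentiation. Counts of these lists, here and below, are therefore no independent evidence. None of 11 pan-endocrine transcription factors passed both limits, and of 11 alpha-lineage regulators only Wnk3 did (lower, log2 fold -1.26 ± 0.22). Irx2 ran from 45.0 to 450 CPM in the members and 101 to 433 in alpha cells, a log2 difference of -0.36 ± 0.25 (adjusted p = 0.513, edgeR). Irx1 differed by -0.68 ± 0.26 and Pou3f4 by -0.16 ± 0.16 on the log2 scale. Isl1, a LIM homeodomain factor of islet cells, was higher by 0.92 ± 0.21 (adjusted p = 0.0063, edgeR), under the fold limit. No beta-lineage regulator of 11 was called. A difference that missed the limits is not shown to be absent.

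The Gcg-low members taken alone differed from alpha cells in more genes, 335 instead of 132 (149 higher and 186 lower, of 7176 tested, without E12.5 v1, which holds under 10 such cells), and 113 of the 132 were called again in the same direction. Counts against Fev hormone-low cells went the other way, from 449 to 291, so that which class differed from the members in the fewest genes turned on whether the Gcg-high members, which meet the Gcg limit of the alpha cells, were included. In this comparison 6 of 11 alpha-lineage regulators were lower, among them Smarca1, Wnk3, Tmem27, Peg10 and Irx1, while Irx2 gave -0.60 ± 0.30 (adjusted p = 0.206) and Pou3f4 -0.09 ± 0.19. Of 11 pan-endocrine transcription factors Isl1 was called higher (1.28 ± 0.20) and Insm1 lower (-1.065 ± 0.269). Of 11 beta-lineage regulators Papss2 was lower (-2.18) and none was higher. Of the progenitor list 4 genes were higher, Cldn4, Neurog3, Btbd17 and Sox4. Of the ghrelin production list, Mboat4 was higher (3.49 ± 0.31) and Pcsk2, Scg5 and Pcsk1n were lower, with Pcsk2 at -2.30 ± 0.21 (adjusted p values of 5.07e-09 for Mboat4 and 8.75e-09 for Pcsk2, edgeR). Of other cells' markers and stress genes, Tyrobp (-3.77), Hbb-y (-2.20, 1 of 6 erythroid genes) and Hspa1a (-2.16) were lower and Atf3 was higher (1.52), Hspa1a and Atf3 being 2 of 7 stress genes; their part in these calls was not tested.

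Against beta cells, epsilon cells had 322 higher (4.17% of 7722) and 342 lower genes (4.43%), and 507 of these 664 calls went alike in all 5 libraries with both classes. The higher genes led by fold included Irs4, Mboat4, Nxph1, Lrrtm3, Avp, Sstr2 and Guca2a, with log2 folds from 8.07 to 4.88. Irs4 and Mboat4 were at or near 0 in beta cells, at 0 to 0.184 and 0 to 1.32 CPM. Nxph1 encodes a neurexophilin, Sstr2 a somatostatin receptor and Guca2a the gut peptide guanylin.

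Alpha-lineage regulators were higher than in beta cells in 10 of 11 cases, beside 4.17% of all genes. Irx1 was higher by 4.47 ± 0.40 (adjusted p = 5.93e-10, edgeR), Irx2 by 4.21 ± 0.36 and Pou3f4 by 4.08 ± 0.23. Of 11 beta-lineage regulators 9 were lower and none higher. Both counts were partly fixed in advance, since the paper picked some of these genes from the Fev-Cre library, which also enters this fit. Peg10, Smarca1, Auts2 and Wnk3 are such genes of the alpha list, and Gng12, Tssc4, Ece1, Wipi1 and Papss2 of the beta list. Pdx1 ran from 0 to 57.9 CPM in the members and 199 to 543 in beta cells (log2 fold -3.30 ± 0.22), and Nkx6-1 from 13.0 to 70.3 against 167 to 476 (-3.10 ± 0.22). These ranges did not overlap. Of other cells' markers and stress genes in this comparison, Dcn (1 of 3 mesenchymal genes, 1.54 ± 0.32) and Anxa2 (1.12 ± 0.26) were higher, and Krt19 was lower (-1.24 ± 0.29), Anxa2 and Krt19 being 2 of 6 ductal genes. Of 7 stress genes Fosb, Ddit3, Fos and Hspa1a were lower, with a list median of -1.12; the list summed to 117 to 3093 CPM in the members and 199 to 4215 in beta cells. Their part in the other calls was not tested.

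The lower genes led by fold were P2ry1, Npy, Tmem215, Gip, Nnat, Bace2, Syndig1l and Sytl4, from -10.2 to -5.90 on the log2 scale. Npy, a neuropeptide gene, ran from 0 to 11.7 CPM in the members and 1145 to 3464 in beta cells. The convertase Pcsk1 was lower (-1.74 ± 0.28) and Pcsk2 was called lower at the fold limit (-1.02 ± 0.27), whereas Pam, which amidates peptide hormones, was higher (1.12 ± 0.14). Pyy, Cck and Gast were higher by 1.15, 2.80 and 2.57.

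Compared with Fev hormone-low cells, members had 269 higher (3.48%) and 180 lower genes (2.33%), and 257 of 449 calls (5.81%) were alike in all 7 libraries. The higher genes with the largest folds included Guca2a, Irs4, Gm11837, Pnoc, Lrrtm3, Acsl1 and Apom (log2 folds 5.32 to 4.28). The lower ones were Egr4, Lhx1, Pax4, Slc35d3, Mnx1, Npepl1, Lhx1os and Vdr (-4.37 to -2.89), of which Lhx1, Pax4, Mnx1 and Egr4 encode transcription factors and Vdr the vitamin D receptor.

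Of the 12 tested endocrine progenitor genes 6 were lower than in Fev hormone-low cells and none was higher. Pax4 had a median of 7.36 CPM in the members, all of whose values were below those of Fev hormone-low cells (95.5 to 336 CPM) (log2 fold -3.93 ± 0.44, adjusted p = 8.93e-08, edgeR). Neurog3 was lower by 1.28 ± 0.39 (log2 fold -1.28, adjusted p = 0.0225, edgeR), with ranges that overlapped at 107 to 1078 CPM against 247 to 1708. Alpha-lineage regulators were higher in 7 of 11, among them Irx1 (3.16 ± 0.32) and Irx2 (2.93 ± 0.29), while Pou3f4 at -0.38 ± 0.16 missed the limits. Of 11 pan-endocrine transcription factors Isl1 was higher, by 2.16 ± 0.20 and in all 7 libraries, and Mlxipl was lower. The median log2 fold of that list was -0.71. Of the beta-lineage list 5 of 11 were lower, among them Pdx1 (-2.49) and Nkx6-1 (-2.58).

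Some markers of other cells and of stress were also called in this comparison, most of them lower. Lower in the members were 4 of 6 erythroid genes (Hbb-bs, Hbb-bt, Hbb-y and Hba-a1), 3 of 6 ductal genes (Sox9, Krt19 and Spp1), 3 of 7 stress genes (Jun, Fos and Hspa1a) and the 1 immune gene tested (Tyrobp). Of 3 mesenchymal genes Dcn was higher (1.24 ± 0.31), and none of 5 acinar genes nor the 1 endothelial gene tested was called. The erythroid list summed to 1.70 to 45086 CPM in the members (median 1075) and 5.78 to 47813 in Fev hormone-low cells (median 11529). The ductal list ran from 598 to 1855 CPM in the members against 814 to 3151, the stress list from 117 to 3093 against 841 to 6062, and the immune list from 0 to 18.9 against 0 to 72.9. Their part in the progenitor calls was not tested.

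**Figure D4:**
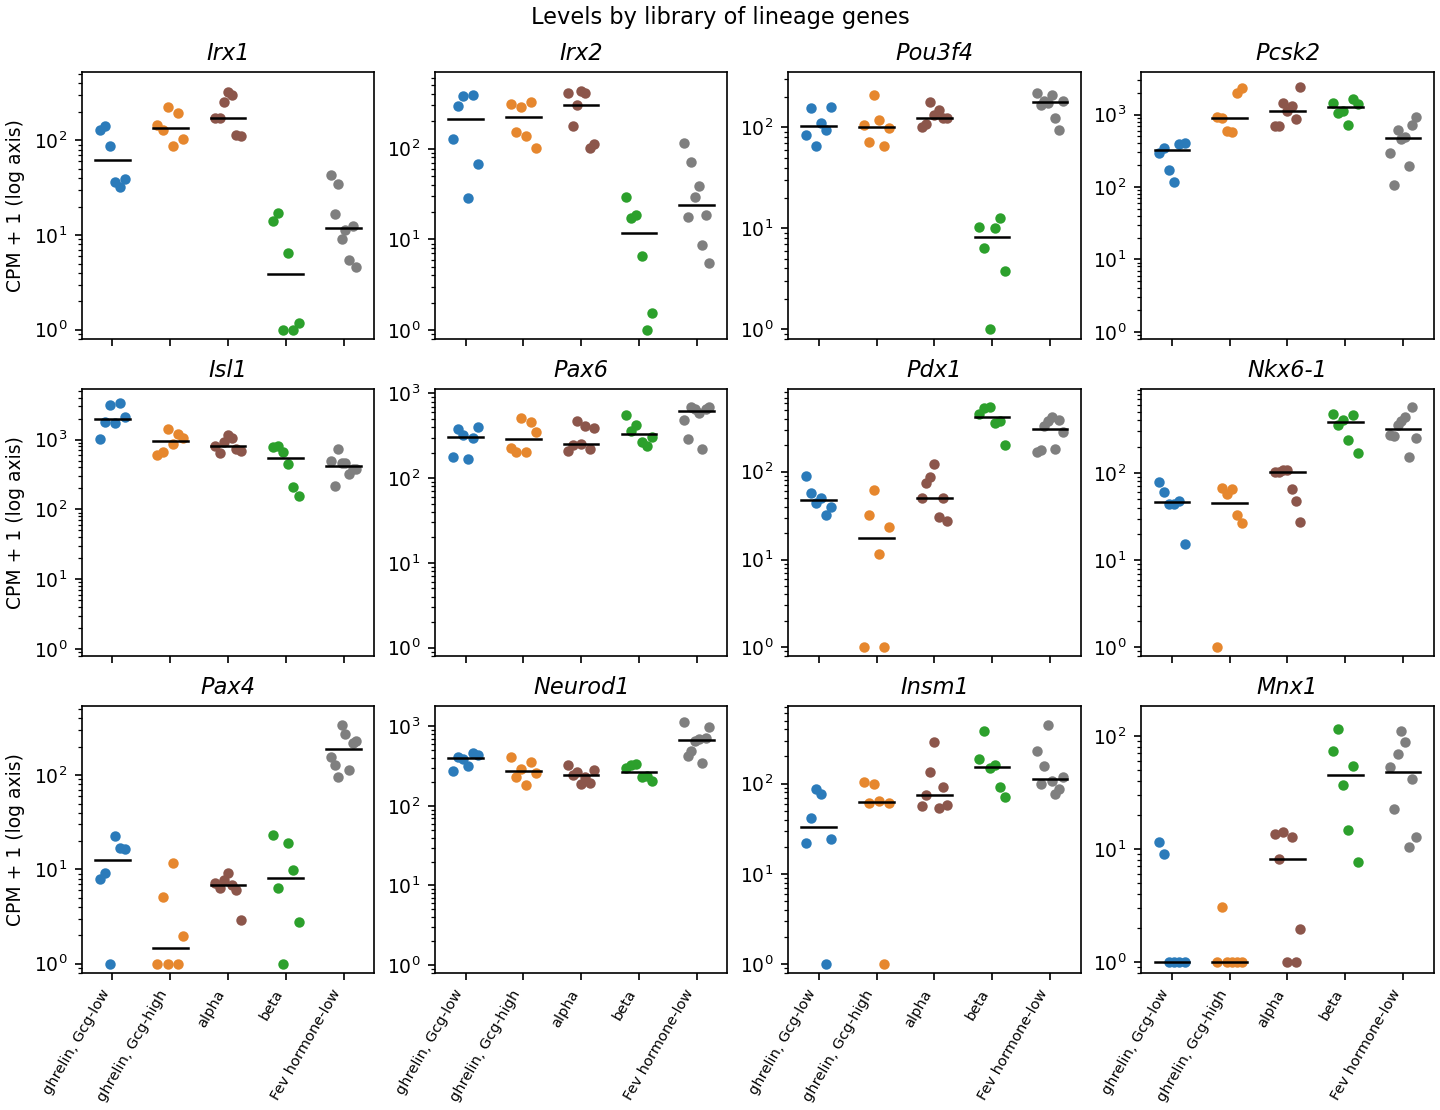
CPM + 1 on a log axis for 12 lineage regulators and endocrine genes in the same 5 classes, 1 point per library and the class median as a bar. Pou3f4 in the members overlaps the values in alpha cells and lies above beta cells, which reach 11.7 CPM, and Pdx1 and Nkx6-1 lie below beta and Fev hormone-low cells.

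Higher levels than in all 3 classes were called for 37 genes, and lower levels for 6 (Gip, Lhx1, Fcer1g, Nod1, F3 and Prss50); the 3 comparisons share the members' sums, so these counts are a description. By the smallest of their 3 folds the higher genes were led by Irs4, Acsl1, Lrrtm3, St8sia2, Mboat4, Gm11837, Anpep, Trp53cor1, Cdkn1a and Avp, whose smallest log2 folds ran from 4.95 to 2.05. Trp53cor1 is a noncoding RNA gene next to Cdkn1a, and Anpep encodes a membrane aminopeptidase. Serpina1a, Serpina1c and Serpina1d are among the 37 but are near-identical copies, and which of them the reads came from is uncertain. Of the 37, 29 had a promoter window in the searched set, and 22 of those (75.9%) held an E-box, close to the 72.1% of that set.

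The Gcg-low and Gcg-high members differed from each other in Neurog3 and in several genes that set the members apart from alpha cells. In 5 libraries with at least 5 cells of each kind, 65 genes were higher in Gcg-high members (1.43% of 4540 tested) and 69 lower (1.52%), in all 134 (2.95%), of which 98 went alike in all 5 libraries. The lower genes with the largest folds were Neurog3, Irs4, Acsl1, Cdkn1a, Stc2, Mboat4, Bambi and Pcp4. Gcg itself and Ghrl define or follow the split and were not called.

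Neurog3 in Gcg-low members was 339 CPM in E12.5 v2, 664 in E14.5 v2, 158 in the Fev-Cre library, 1600 in E17.5 v1 and 567 in E17.5 v2. In Gcg-high members it was 14.52 CPM in E12.5 v2 and 18.6 in the Fev-Cre library, and no UMI was found in the other 3, where 3 counts would have given 32.0, 97.1 and 2.85 CPM in E14.5 v2, E17.5 v1 and E17.5 v2. Every Gcg-low value was above every Gcg-high value. The log2 fold was -5.99 ± 0.47 (adjusted p = 4.26e-07, edgeR).

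Irs4 in the same order of libraries was 143, 128, 51.0, 62.7 and 178 CPM in Gcg-low members and 27.0, 0, 4.65, 0 and 0.948 CPM in Gcg-high members. Again no Gcg-high value reached a Gcg-low one, and the log2 fold was -3.99 ± 0.48 (adjusted p = 3.47e-05, edgeR). In E17.5 v1, 3 counts in the Gcg-high members would have given 97.1 CPM, above the 62.7 CPM of its Gcg-low members. The 0 there does not show a separation. Mboat4 was 108, 261, 172, 518 and 266 CPM in Gcg-low members and 43.6, 21.3, 65.0, 32.4 and 16.1 CPM in Gcg-high members, a log2 fold of -2.54 ± 0.33 (adjusted p = 8.55e-05, edgeR). Cdkn1a was 1978, 3764, 1228, 6446 and 2770 CPM against 483, 107, 172, 97.1 and 126 CPM, a log2 fold of -3.58 ± 0.35 (adjusted p = 3.53e-06, edgeR). Alpha cells had medians of 16.4 CPM for Mboat4, 0.563 for Irs4 and 90.8 for Cdkn1a, and the Gcg-high members of E12.5 v2 and of the Fev-Cre library lay above these medians for all 3 genes. These medians run over libraries among which alpha levels varied, so they do not compare the classes within a library. The Irs4 value of the Fev-Cre library rests on 1 UMI, however, and says little about its level there.

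Other members of the given marker set did not all follow the split. Maged2 was lower in Gcg-high members (log2 fold -2.25 ± 0.20, in 5 of 5 libraries), whereas Nefm at -0.64 ± 0.18 stayed under the fold limit. Of the 10 tested progenitor genes 4 were lower (Neurog3, Cldn4, Sox4 and Btbd17).

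Higher in Gcg-high members were Tmsb15b2, Ttr, Resp18, Tmsb15l, Iapp, Cit, Slc7a2 and Ripply3, with log2 folds from 2.36 to 2.01; Tmsb15b2 and Tmsb15l are near-identical copies and uncertain one by one. Ttr was 29491 CPM in Gcg-high against 5159 in Gcg-low members of E12.5 v2, and 12910 against 2719 in E17.5 v2. Of the 7 tested genes for making ghrelin 3 were higher in Gcg-high members and Mboat4 was lower, beside 1.43% and 1.52% of all genes. The 3 were Pcsk2 (2.00 ± 0.22), its chaperone Scg5 (1.23 ± 0.19) and Pcsk1n, an inhibitor of the other convertase (1.04 ± 0.18); the other 3 did not pass. Pcsk2 ran from 117 to 407 CPM in Gcg-low and 576 to 2329 in Gcg-high members, without overlap. Of 11 alpha-lineage regulators 5 were higher, among them Peg10, Smarca1, Tmem27 and Wnk3, and none lower; Peg10 rose by 1.53 ± 0.18. Irx2 (0.50 ± 0.23, adjusted p = 0.253) and Pou3f4 (-0.09 ± 0.20) were not called (edgeR).

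Acinar and ductal markers also went with the split. All 3 tested acinar genes, among them Cpa1 and Ctrb1, and 3 of 6 ductal genes (Spp1, Sox9, Hes1) were lower in Gcg-high members. The acinar list summed to 62.7 to 8411 CPM in Gcg-low and 20.7 to 4609 in Gcg-high members. More than 1% of UMIs came from the 2 lists together in 18 Gcg-low and 7 Gcg-high members, and without these cells 129 genes were called, 115 of them shared with the 134. Jun, of the stress list, was lower as well (-1.48 ± 0.22). Leaving out E17.5 v2 left 71 calls and leaving out E14.5 v2 left 86.

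Within the Gcg-low members, cells with and without a Neurog3 UMI were set side by side as a description, without a test, since the cells were divided by a measured gene. The cells were pooled over libraries in unlike proportions, so stage, kit, sort and strain differ along with Neurog3 in these shares. A Neurog3 UMI was present in 101 of the 242 (41.7%; 31.1% after thinning to 2000 UMIs), in 3.76% of Gcg-high members (0.546% thinned), in 6.04% of alpha cells and in 5.97% of 9000 cells drawn from outside the gate (median 5984 UMIs). Median Ghrl was 3.41% of UMIs with Neurog3 and 3.24% without it, and the median depth 7600 and 8093 UMIs. Mboat4 had a UMI in 82.2% with Neurog3, 58.9% without and 26.9% of Gcg-high members. The same order held for Irs4 (64.4, 17.7 and 5.38%), Acsl1 (45.5, 16.3 and 5.91%), Stc2 (62.4, 27.7 and 7.53%), Cer1 (45.5, 14.2 and 5.91%) and Cdkn1a (98.0, 80.1 and 58.6%). Pcsk2 ran the other way (27.7, 71.6 and 97.3%). Isl1 was found in 96.5 to 98.4% of all 3 sets. Of the other given markers, Maged2 was found less often with Neurog3 than without it (89.1, 94.3 and 76.3%), and Nefm was found in 73.3, 55.3 and 58.1%. The median of Ghrl was thus about as high with Neurog3 as without it, and these other genes did not all follow 1 order.

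In the Fev-Cre library, eGFP transcripts mark cells in which the Fev promoter has driven Cre, and their progeny. All GFP+ cells were loaded, with a chosen number of GFP-negative cells, so the share with eGFP within each class also follows the sort and is not the share in the embryo. With only 1 library no test was made, and shares carry exact binomial intervals that cover counting error over its cells. An eGFP UMI was found in 57 of 62 members (91.9%, 82.2 to 97.3%), among Gcg-low members in 36 of 40 (90.0%, 76.3 to 97.2%) and among Gcg-high members in 21 of 22 (95.5%, 77.2 to 99.9%). Alpha cells carried it in 556 of 557 (lower end of the interval 99.0%) and beta cells in 397 of 398 (98.6%). Fev hormone-low cells carried it in 94.6% (93.1 to 95.9%), a range that overlaps that of the members. Members with at least 1% Ghrl had it in 38 of 39 (97.4%, 86.5 to 99.9%), and this interval overlaps those of alpha and beta cells. Cells outside the endocrine gate carried it in 20.6% (861 of 4187), and cells of the gate with at least 3 Neurog3 UMIs and no Fev UMI in 21.4% (22 of 103, 13.9 to 30.5%).

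By level the members had 1225 eGFP CPM, alpha cells 1710, beta cells 1809, Fev hormone-low cells 1796 and cells outside the gate 90.3. Thinned to 2000 UMIs, 82.3% of members (70.5 to 90.8%), 87.7% of Fev hormone-low cells (85.6 to 89.7%) and 94.4% of alpha cells (92.2 to 96.2%) had an eGFP UMI. A tdTomato UMI was found in 2 members, but also in only 10.9% of cells outside the gate (457 of 4187). Its absence therefore says little about whether a cell was labelled. Fev itself had a UMI in 22 of the 62 (35.5%, 23.7 to 48.7%) and in 57.6% of alpha cells (53.4 to 61.8%), at median depths of 8267 and 8897 UMIs. Thinned to 2000 UMIs these shares overlapped, at 12.9% (5.74 to 23.9%) and 17.4% (14.4 to 20.8%), and by level the members had more Fev, 206 CPM against 126 in alpha cells, so the shares and levels gave no common direction.

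**Figure D5:**
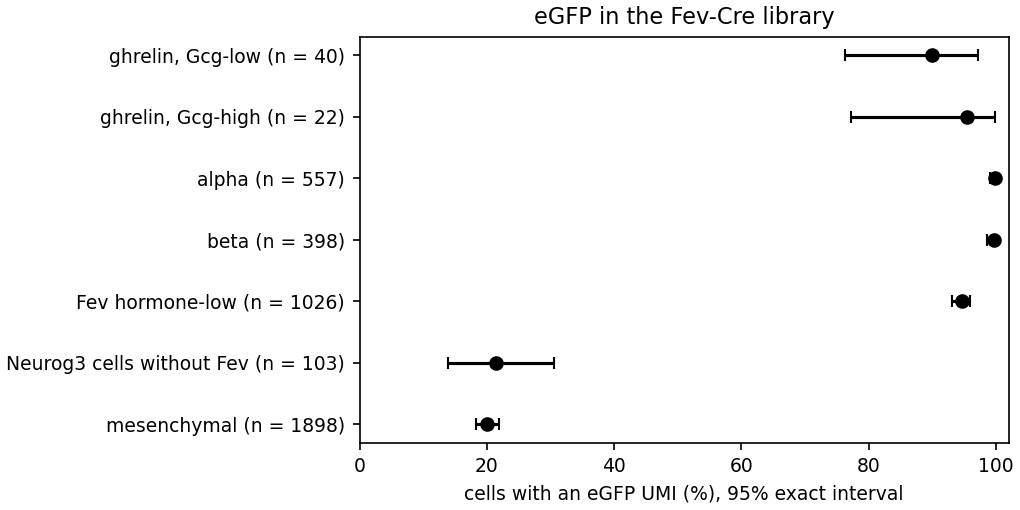
Share of cells with an eGFP UMI in each class of the Fev-Cre library, in percent with the 95% exact binomial interval. Gcg-low members stand at 90.0% and Gcg-high members at 95.5%, beside Fev hormone-low cells at 94.6%, alpha cells at 99.8% and beta cells at 99.7%, and all are above mesenchymal cells at 20.1%.

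Stage was compared over 7 libraries with the kit as a covariate. In the reported fit few genes passed, and the number depended on which libraries entered. Without the Fev-Cre library 84 genes in place of 20 were called from E14.5 to E17.5 and 236 in place of 48 from E12.5 to E14.5. With batch as a block in place of the kit, where the Fev-Cre library is alone in its block and adds nothing to the stage difference, the counts were 95 and 237, among them all of the 20 and all of the 48. The v1 libraries of E12.5 and E17.5 and batch 2 of E14.5 were labelled as 1 batch, whereas the v2 stages were prepared on different days, so stage and day cannot be told apart in v2. The stages also differed in their mix of members, with 66.7% Gcg-high at E12.5 in v2, 17.7% at E14.5 and 51.8% at E17.5, and genes such as Ttr and Pcsk2 differed between Gcg-high and Gcg-low members. From E14.5 to E17.5, 11 genes were higher (0.148% of 7414) and 9 lower (0.121%). Pcsk2 was 310 CPM in E14.5 v1 batch 2, 188 in E14.5 v2 and 439 in the Fev-Cre library, and 909 and 1473 CPM in the v1 and v2 libraries of E17.5. It was higher by 2.18 ± 0.35 (adjusted p = 0.00298, edgeR); with Gcg-low members alone the log2 fold was 1.12 and did not pass. In that fit 35 genes were called, 15 of them shared with the 20. Slc30a8, the zinc transporter of secretory granules, was 15.5, 16.7 and 10.2 CPM at E14.5 and 137 and 95.2 CPM at E17.5 (log2 fold 3.12 ± 0.48). Cck was 854, 557 and 975 CPM at E14.5 and fell to 391 and 174 CPM (log2 fold -1.55 ± 0.34, adjusted p = 0.0483, edgeR). For these 3 genes the stages did not overlap. Mfap4, Fscn1, Serpina1b, Ifitm1, Mia, Ambp, Dlk1 and Dll3 were the others that fell.

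Markers of acinar and red blood cells were among the higher genes at E17.5. Of 5 tested acinar genes Ctrb1 was called (log2 fold 3.09 ± 0.61); it had no UMI in E14.5 v1 batch 2 and was 1408 CPM in E14.5 v2, 192 in Fev-Cre, 42.3 in E17.5 v1 and 5671 in E17.5 v2, so the stages overlapped. Without the members that had over 1% of UMIs from acinar and ductal genes, 6 genes were called in place of 20, all 6 shared with them. Hemoglobin genes were higher as well, with 3 of 5 tested erythroid markers called (Hbb-bt, Hba-a1 and Hba-a2, the Hba genes being near-identical copies). The erythroid list summed to 45086 CPM in E17.5 v2 members, 1615 in E17.5 v1, 1.70 in the Fev-Cre library and 498 to 1306 in the remaining libraries; its part in the other calls was not tested. The Sst call rested on few cells, since 95.4% of all Sst UMIs in members came from the 5 members with at least 1% Sst. Without E17.5 v2 no gene was called (242 at an unadjusted p under 0.05), without E17.5 v1 54 were, and without the Fev-Cre library 84 were.

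From E12.5 to E14.5, 24 genes were higher and 24 lower (each 0.324% of 7414, together 0.647%). Pcsk1 was 65.0 and 19.5 CPM in the v1 and v2 libraries of E12.5 and 295, 95.01 and 85.1 CPM in v1 batch 2, v2 and Fev-Cre libraries of E14.5 (log2 fold 2.09 ± 0.43, adjusted p = 0.0198, edgeR). Avp, the vasopressin gene, rose from 0 and 16.9 CPM to 109, 91.7 and 83.4 CPM (log2 fold 2.54 ± 0.56). Ttr was 16294 and 20429 CPM at E12.5 and fell to 8677, 4250.5 and 3910 CPM (log2 fold -1.82 ± 0.37). The values of these 3 genes did not overlap between the stages. With Gcg-low members alone 9 genes were called in place of 48, 6 of them shared, and neither Ttr (log2 fold -1.29) nor Pcsk1 (3.23) passed. That fit also lost the E12.5 v1 library, whose 4 Gcg-low members are under the minimum of 10 cells. Leaving out E12.5 v1 with all members kept gave 15 calls, so the mix of members and the lost library cannot be told apart here. Nkx6-2, a homeobox gene, was 78.0 and 53.4 CPM at E12.5 and had no UMI in the members of E14.5 or E17.5 libraries used in the fit. Meis2, Cd200, Klf10 and Muc1 were also higher at E14.5, and Apoa1, Fgb, Hbb-y and Plac1 lower. Of 7 tested stress genes Fos was higher at E14.5 (2.75 ± 0.55), and the median log2 fold of that list was 1.63. The list summed to 117 and 233 CPM at E12.5 and to 2373, 738 and 338 CPM in the same 3 libraries of E14.5; its part in the other calls was not tested. Without E12.5 v2 no gene was called (432 at an unadjusted p under 0.05), and without the Fev-Cre library 236 were.

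With the kit as covariate neither step called Mboat4, Irs4, Acsl1, Cdkn1a, Neurog3 or Isl1. Irs4 differed by 0.02 ± 0.47 from E14.5 to E17.5 and by 0.06 ± 0.52 from E12.5 to E14.5 on the log2 scale. Mboat4 gave -0.34 ± 0.33 and 1.51 ± 0.37 (adjusted p = 0.0587 for the latter, edgeR), and Neurog3 0.84 ± 0.58 and 0.87 ± 0.59. With these errors, changes of about 2-fold in such genes could not be told from none, nor could some larger ones, such as the log2 fold of 1.51 of Mboat4.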

How the data were processed

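Processed count matrices from 10 GEO samples (9 used; the second matrix of the Fev-Cre cells, made without reporter sequences, was not used) were analysed. Per the labels and methods, the authors aligned reads to mm10 with Cell Ranger (versions 1.1 and 2.1 appear in the submitters' processing notes), added reporter sequences to the Fev-Cre reference and deposited UMI counts per gene and barcode. Doublets were reduced by size selection during the sort; no caller was run here.

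Members and gene lists were chosen with earlier results of these data known. Barcodes with at least 200 genes were kept (57982 of 66017). UMIs were summed per library and class (at least 10 cells; at least 5 for the Gcg subsets), normalized by TMM, filtered by filterByExpr and tested with edgeR 4.0.16 (glmQLFit) in R 4.3.3, with all classes in 1 fit and the library as a block; the stage fit had the kit as covariate. A call needed an adjusted p under 0.05 and a 2-fold change. Reads of classes from the same library share a suspension: within a library the classes' deviations correlated at 0.549 to 0.853, between libraries at -0.673 to 0.604, and for the Gcg subsets at 0.439 to 0.669 against -0.364 to 0.110. The sums held 64425 to 1901127 UMIs for members.

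Named genes were those of the lists on which a result turns and, per comparison, the 8 called genes with the largest fold in each direction that moved alike in every library; Gal, Dll3, Avp between stages, and genes called against all 3 classes were named after their values were seen where no list or rank held them. Alternatives were DESeq2 1.42.0, no filter, no block, other gates, other cell minimums and leaving out each library. Scripts were tested on simulated data. Shares have Clopper-Pearson intervals (SciPy 1.17.1), apart from the limit given for Ghsr. Promoter windows are from RefSeq, gene positions from GENCODE on GRCm38. Some genes tested are not reported here.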

Additional observations from a re-analysis of the deposited data

Results flagged for a closer look

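Of 59 genes with at least 10 UMIs in the members of the 4 E14.5 libraries, 4 had a library far from the others by Dixon's criterion; chance alone marks about 1 in 20 groups. Aldoc was 90.6 CPM, Ffar1 90.6 CPM and Sstr2 45.3 CPM in E14.5 v1 batch 1, which holds 6 members, so that each of these values rests on 1 or 2 UMIs. Sst was 2080 CPM in E14.5 v1 batch 2, where all 134 UMIs came from 1 of the 14 members.

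Cells with at least 0.3% Ghrl also occurred outside the endocrine gate. There were 56 of them, of which 40 lacked the granin counts and 18 were over the Col3a1 limit. A Mboat4 UMI was found in 33 (58.9%) and a Maged2 UMI in 52, 13 had at least 1% Gcg, and the medians were 1.40% Ghrl and 7750.5 UMIs. In cells outside the gate as a whole, Mboat4 had a UMI in 0.511% (9000 cells, median 5984 UMIs).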

How the results depend on the processing

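Without a replicate block for the library, calls fell from 132 to 40 against alpha cells (85.0% of them higher instead of 56.8%) and from 134 to 14 between Gcg subsets; the totals for beta and Fev hormone-low cells stayed within 1.5 times, though lower calls against Fev hormone-low cells fell from 180 to 111. With a batch block in place of the kit term (replicate block), the stage counts were 95 (E17.5 against E14.5, 20 in the reported fit) and 237 (E14.5 against E12.5, 48 reported), and with no kit term 1 and 5. Without the filter on low counts 338, 1353, 891, 251, 85 and 116 genes were called in the 6 comparisons (alpha, beta, Fev hormone-low, Gcg subsets, both stage steps), and the higher share against alpha cells was 44.1%. With Gcg-low members only, 335 (44.5% higher), 291, 35 and 9 were called against alpha and Fev hormone-low cells and in the stage steps. DESeq2 called 10, a minimum of 20 cells 70, and the members without the acinar- and ductal-rich cells (chosen after seeing the data) 6 genes for E17.5 against E14.5. The cause of these shifts was not tested, apart from the number of genes tested without the filter and the loss of the Fev-Cre library from the batch-blocked stage fit.

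Leaving out 1 library or well gave 96 to 174 calls against alpha, 551 to 776 against beta, 384 to 543 against Fev hormone-low cells, 71 to 146 between Gcg subsets, 0 to 84 for E17.5 against E14.5 and 0 to 236 for E14.5 against E12.5. For the first stage step the counts were 6 without E14.5 v1 batch 2, 54 without E17.5 v1, 65 without E14.5 v2, 84 without Fev-Cre and 10 without the second E17.5 v2 well. For the second step they were 11 without E14.5 v1 batch 2, 15 without E12.5 v1, 87 without E17.5 v1, 97 without E14.5 v2, 29 without E17.5 v2 and 236 without Fev-Cre. The direction turned for Hspa1a against beta cells (-2.33 without Fev-Cre to 0.035 without E17.5 v2), Hba-a2 for E17.5 against E14.5 (-2.76 without E17.5 v2 to 7.66 without E14.5 v2) and Tmsb15b2 for E14.5 against E12.5 (-0.36 without E12.5 v2 to 4.80 without E14.5 v2), all as log2 folds. Of the genes followed through every setting, 11 of 26 against alpha, 49 of 74 against beta, 36 of 67 against Fev hormone-low cells, 9 of 39 between Gcg subsets and none of the stage genes kept their call in all settings.

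Members were 3.06% of the endocrine gate at a Ghrl limit of 1% and 2.43% for Gcg-low members only, against 4.29%; eGFP was found in 97.4% of Fev-Cre members at that Ghrl limit. Depth limits the v1 libraries most, where 6 to 24 members per library make 1 UMI of a gene a large part of its level.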

Other observations

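Several gene groups not described above held called genes, most of them against beta cells, where 8.6% of all genes were called. Of 4 tested genes of the neuronal cytoskeleton, Nefm, Maged2 and Gap43 (2.08 ± 0.48) were higher and Tubb3, a neuronal tubulin, was lower (-1.45 ± 0.28). Of 4 delta and PP lineage genes, Etv1 (3.46 ± 0.25), Rbp4 (1.14 ± 0.19) and Hhex (1.22 ± 0.41) were higher. Of 11 excitability and exocytosis genes Cacna2d1, a calcium channel subunit, was higher and Syt13, Rab3b and Scn9a were lower against beta cells. Against alpha cells none was called with all members. With Gcg-low members alone, of 10 tested, Cacna2d1 was higher than in alpha cells (1.12 ± 0.21) and Syt13 (-1.21 ± 0.18) and Rab3b (-1.34 ± 0.42) were lower. Serotonin genes were not called against alpha or beta cells (2 tested), and Ddc was lower than in Fev hormone-low cells (log2 fold -1.39 ± 0.30, adjusted p = 0.000975, edgeR). Sct, the secretin gene, was higher than in Fev hormone-low cells (1.69 ± 0.26) and, with Gcg-low members alone, lower than in alpha cells (-1.35 ± 0.33).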
